A study of Mus musculus with 3 samples.

Results

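Replication histone genes encode the core and linker histones that a cell makes in bulk while it copies its DNA. The genes described here are every row of the count matrix whose symbol starts with Hist1h, Hist2h, Hist3h or Hist4h, which gave 69 rows (68 symbols, since Hist2h2bb names 2 rows) of 27998 genes. By type they were 6 linker histone H1 genes, 19 H2A, 19 H2B, 12 H3 and 13 H4 genes. The Hist1 locus held 55 of them, the Hist2 locus 11, the Hist3 locus 2 and the Hist4 locus 1. Their levels were read from single-cell RNA sequencing of nephron progenitors, the mesenchymal cells of the fetal kidney from which nephrons form, taken from mouse embryos at E14.5. Every cell came from Six2GFP+ embryos and was sorted as positive for the fluorescent protein, with gates against dead cells, debris and doublets. Kidneys from several litters went as a pool into 3 tubes, so a tube is neither an animal nor a litter, and each tube gave 1 library of the same group (libraries 1, 2 and 3).

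Cells were set apart by their own transcripts. Proliferating cells had at least 1 unique molecular identifier (UMI, the tag of 1 captured transcript) of Top2a or Mki67, and the other cells had none. The Wnt4 class had at least 1 UMI of Wnt4, the signal that starts the conversion of progenitors into epithelium, and none of Lhx1. The Lhx1 class had at least 1 UMI of Lhx1, a homeobox gene of the early nephron. The Six2 class had at least 1 UMI of Six2, the transcription factor that keeps progenitors undifferentiated, and none of Wnt4 and Lhx1. Six2 class cells numbered 3047 proliferating and 2947 other cells, Wnt4 class cells 280 and 130, and Lhx1 class cells 54 and 25. Among the proliferating cells of any class or none, 990 were led by genes of S phase and 990 by genes of M phase, as set out with that comparison.

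As background, H2A, H2B, H3 and H4 build the core of the nucleosome and H1 binds the linker DNA between nucleosomes. The genes lie in clusters, are transcribed mainly in S phase, and most of their mRNAs end in a stem-loop in place of a poly(A) tail. The stem-loop is bound by the protein Slbp, which takes part in cutting the transcript, in its translation and in its decay at the end of S phase. Libraries of the kind used here are primed on poly(A), so the values below count the share of histone transcripts that such priming captures, and how much of each gene's mRNA that is was not tested.

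The stem-loop is shown first because it is the feature that sets these transcripts apart. The histone stem-loop consensus of 16 bases was searched on the sense strand in the transcripts of the GENCODE M21 annotation (GRCm38). It was found in 44 of the 66 genes that the annotation holds. Over all 141767 transcripts of the annotation, 0.0501% held it. There were 8 forms, and the form of Hist1h2ap was shared by 24 genes, that of Hist4h4 by 7, that of Hist1h3c by 6 and those of Hist1h4i and Hist1h4j by 2 each. The remaining 3 forms had 1 gene each. Capitals mark the bases of the stem, lower case the loop.
Hist1h2ap: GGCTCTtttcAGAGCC
Hist1h3c: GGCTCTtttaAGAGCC
Hist1h4i: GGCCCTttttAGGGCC
Hist4h4: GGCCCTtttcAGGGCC
Hist1h4j: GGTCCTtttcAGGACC

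No stem-loop was found in the transcripts of Hist1h1b, Hist1h1a, Hist1h2bc and Hist2h2be, which are described below. Of the 22 genes without one, 11 have annotated transcripts that hold only the coding sequence, so the search could not reach their 3′ ends. For the rest, how far the annotated transcripts reach past the coding sequence was not measured. The annotated end also differed among genes with a stem-loop. The transcript of Hist1h2ap (chromosome 13, 21833026 to 21833507, minus strand) ends 3 bases after it, that of Hist1h3c 74, that of Hist3h2ba 169, that of Hist1h4i 330, that of Hist3h2a 1643 and that of Hist4h4 2445 bases after it. The sequence AATAAA, the usual signal for poly(A) addition, followed the stem-loop in 13 of 23 genes counted as running on and in 0 of the 21 counted as ending at it. A gene was counted as running on where a transcript goes over 100 bases past the stem-loop or where a further transcript lacks it. Hist1h2bp was counted so by its second transcript alone, since the one with the stem-loop ends 38 bases after it.

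Promoters of 59 genes were found in the RefSeq table (GRCm38.p6; 250 bases before to 50 after the start, both strands searched). CCAAT was present in 84.7% of them, against 37.4% of the 32851 promoters of the table. All promoters of H1, H2A, H2B and H3 genes in the table held it, against 3 of 12 H4 promoters. TATAAA was present in 59.3%, against 13.6% of all promoters. ATTTGCAT, the octamer, was found in 7 of 17 H2A and 5 of 14 H2B promoters and in none of the other types, against 1.74% of all promoters. AAACACA was found in 5 of 6 H1 promoters, against 7.18% of all promoters. Printed are the promoters of the H1 genes Hist1h1b (chr13:21780576-21780875, minus strand) and Hist1h1e (chr13:23622509-23622808, minus strand), and of the H2B gene Hist3h2ba (chr11:58948661-58948960, plus strand), whose levels moved in opposite directions below. Capitals mark the motifs named above on either strand.
Hist1h1b: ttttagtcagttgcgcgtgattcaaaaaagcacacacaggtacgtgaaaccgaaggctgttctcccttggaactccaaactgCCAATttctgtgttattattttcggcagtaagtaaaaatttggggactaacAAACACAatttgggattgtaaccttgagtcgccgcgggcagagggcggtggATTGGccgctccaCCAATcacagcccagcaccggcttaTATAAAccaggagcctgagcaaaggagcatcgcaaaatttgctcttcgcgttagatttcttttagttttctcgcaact
Hist1h1e: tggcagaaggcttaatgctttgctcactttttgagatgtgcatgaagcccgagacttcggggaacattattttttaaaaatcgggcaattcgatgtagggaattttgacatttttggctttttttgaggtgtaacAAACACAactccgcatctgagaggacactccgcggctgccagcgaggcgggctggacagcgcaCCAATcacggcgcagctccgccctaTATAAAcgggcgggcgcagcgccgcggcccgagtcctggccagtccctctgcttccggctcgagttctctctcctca
Hist3h2ba: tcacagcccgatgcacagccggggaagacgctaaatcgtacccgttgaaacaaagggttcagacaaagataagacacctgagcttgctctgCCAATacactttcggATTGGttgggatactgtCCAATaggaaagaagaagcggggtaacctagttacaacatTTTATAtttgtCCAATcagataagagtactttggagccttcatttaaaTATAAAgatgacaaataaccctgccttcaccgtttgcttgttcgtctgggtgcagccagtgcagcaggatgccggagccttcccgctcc

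The matrix kept 7876 cells after filtering, 3016, 2756 and 2104 in libraries 1, 2 and 3, with a median of 15909.5, 11915 and 15789.5 UMIs per cell. The 6 nephron progenitor markers were summed at 1020 to 1446 CPM (UMIs of a gene per 1000000 UMIs, summed over the cells of a group) in proliferating and 1175 to 1726 CPM in other cells of the Six2 class. The 6 immune markers summed to at most 13.7 CPM and 2.90 CPM in the same groups, and their part in the results below was not tested. Eya1 was found in 93.4% and Cited1, a gene of the least committed progenitors, in 65.0% of Six2 class cells. The libraries differed in composition: ribosomal protein genes took 24.4%, 12.9% and 20.8% of UMIs. There were 22 barcodes found in 2 libraries and none in all 3. Doublets have to be taken as present, since the doublet caller marked 0.253% of cells, too few for it to have worked.

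The histone genes together had 64685 UMIs. They took 691, 381 and 460 CPM in libraries 1, 2 and 3, so library 1 stood above the others. A few genes carried most of this: the leading 5 took 71.1% of all histone UMIs and the leading 10 took 86.8%. At least 100 UMIs were found for 32 genes, and most genes described by name are among these. No UMI was found for 4 genes (Hist1h2aa, Hist1h2ba, Hist1h2bq and Hist1h4m), which allows up to 0.0247 CPM by counting error alone (3 UMIs over all kept cells).

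H2A genes took 34.8% of the histone UMIs and H2B genes 34.0%, against 15.3% for H4, 12.9% for H1 and 2.98% for H3. The leading genes were Hist1h2ap (H2A) with 10295 UMIs, Hist3h2ba (H2B) with 9505, Hist1h2bc (H2B) with 9503, Hist3h2a (H2A) with 8912 and Hist1h4i (H4) with 7762. The pair of Hist3 genes alone held 28.5% of the UMIs. A UMI is 1 captured 3′ end, so these are levels per transcript and not per length. Many copies of a type have near-identical coding sequences, and rules for reads that match several copies are not given in the sources used here. Values of single copies are therefore uncertain, and the sums by type are given first. If such reads were left out, the sums and the shares of the types are affected as well.

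In the Six2 class the summed level of all histone genes was 879, 452 and 542 CPM in proliferating cells of libraries 1, 2 and 3, against 402, 280 and 320 CPM in other cells. Each library was higher in its proliferating cells, by 2.19-, 1.62- and 1.69-fold, and the groups did not overlap. The mean was 624 ± 225 CPM in proliferating and 334 ± 62.1 CPM in other cells (SD, n = 3 each). The types did not share this difference evenly.

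H1 genes summed to 116, 85.7 and 93.9 CPM in proliferating and 16.6, 23.1 and 15.6 CPM in other cells of the Six2 class, a ratio of 6.97, 3.72 and 6.02 in libraries 1, 2 and 3. H4 genes summed to 120, 106 and 117 CPM in proliferating and 43.3, 25.5 and 30.5 CPM in other cells, a ratio of 2.78, 4.17 and 3.84. Both types lay apart in every library, with no overlap between the groups. H3 genes, the least captured type, summed to 30.4, 6.90 and 17.2 CPM in proliferating and 13.2, 4.89 and 7.42 CPM in other cells. H2A genes summed to 418, 126 and 126 CPM in proliferating and 101, 105 and 78.9 CPM in other cells, so that library 1 alone held a ratio over 4 (4.14, against 1.20 and 1.60). H2B genes summed to 194, 127 and 188 CPM in proliferating and 228, 121 and 188 CPM in other cells, and their groups overlapped. Their mean was 170 ± 37.1 CPM in proliferating and 179 ± 54.0 CPM in other cells (SD, n = 3 each). Single genes weighed heavily in the sums. Over all kept cells Hist1h4i held 7762 of 9907 H4 UMIs and Hist1h2ap 10295 of 22532 H2A UMIs. A sum by type is therefore not a level shared by all genes of the type.

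**Figure D1:**
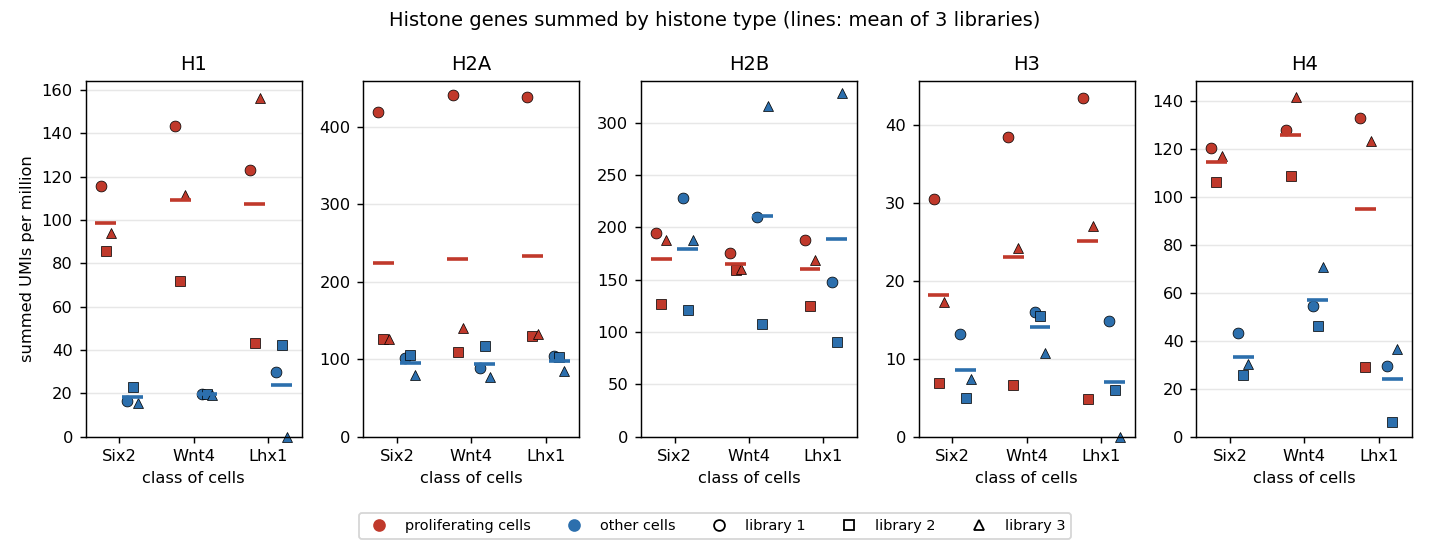
Summed CPM (y axis) of the histone genes of each type in proliferating (red) and other cells (blue) of the Six2, Wnt4 and Lhx1 classes (x axis), with 1 point per library (circle, square and triangle for libraries 1, 2 and 3) and a line at the mean of the 3 libraries. H1 sits at 85.7 to 116 CPM in proliferating and 15.6 to 23.1 CPM in other cells of the Six2 class, whereas H2B overlaps between them, at 127 to 194 and 121 to 228 CPM.

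Tests on single genes were run on UMIs summed per library, class and proliferation, with the library as a block (edgeR's quasi-likelihood test, Benjamini-Hochberg adjustment over all genes, threshold 0.05). The block takes out each tube's own level. The spread behind the p-values is therefore that of the group differences across these 3 tubes, and it may be technical. In the Six2 class 14 of the 69 genes passed the filter on low counts, and 11 were called higher and 2 lower in proliferating cells. Over all 9259 genes tested, 21.8% were called higher and 30.7% lower. The median log2 change was 1.60 over these 14 genes and -0.05 over all genes tested. A gene could pass the filter through the cells where it is high, so the count describes these 14 and not the 69.

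Among the H1 genes, Hist1h1b (H1f5 in RefSeq) had 57.4, 32.9 and 44.9 CPM in proliferating cells of libraries 1, 2 and 3, against 1.56, 1.09 and 0.938 CPM in other cells. All 3 proliferating values lay far above the 3 others, and the fitted change was the highest of the 14 genes, 5.21 on the log2 scale (SE 0.14, edgeR adjusted p = 5.9e-38). Hist1h1e (H1f4) had 33.1, 12.6 and 21.0 CPM in proliferating and 3.75, 2.41 and 3.15 CPM in other cells, again without overlap. Its log2 change was 2.85 (SE 0.13, edgeR adjusted p = 1.1e-26). Hist1h1c (H1f2) differed least of the H1 genes, with 15.6, 34.4 and 18.6 CPM in proliferating and 10.2, 18.2 and 10.5 CPM in other cells. It was higher in proliferating cells of every library while the groups overlapped, because library 2 lay high in both. Its log2 change was 0.81 (SE 0.082, edgeR adjusted p = 2.6e-12).

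Hist1h2ap, an H2A gene, had 299, 14.9 and 31.7 CPM in proliferating cells of the Six2 class, against 14.4, 0.854 and 1.79 CPM in other cells. The level hung on the library, with library 1 many times above the others in both groups, while the ratio was alike in all 3, at 20.8, 17.5 and 17.7. The log2 change was 4.34 (SE 0.070, edgeR adjusted p = 1.6e-46). Without the library block this call was lost, at an adjusted p of 0.0885. Hist1h2ae, a second H2A gene, had 29.0, 4.49 and 15.0 CPM in proliferating and 5.94, 0.776 and 2.98 CPM in other cells, higher in each library but overlapping across libraries (log2 change 2.31, SE 0.13). Hist1h2ag had 13.6, 3.19 and 8.14 CPM in proliferating and 8.20, 1.01 and 3.32 CPM in other cells, with a log2 change of 0.97 (SE 0.14). This call too was lost without the block, at an adjusted p of 0.451.

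Hist3h2a, the H2A gene of the Hist3 locus, went the other way by little. It had 56.9, 99.9 and 62.2 CPM in proliferating and 68.2, 102 and 68.9 CPM in other cells. Each library was slightly lower in its proliferating cells, with groups that overlapped, and the log2 change was -0.13 (SE 0.042, edgeR adjusted p = 0.0064). The call was lost without library 1, where the change was -0.08 (adjusted p = 0.169), and with cells thinned to 5000 UMIs, where it was -0.01 (adjusted p = 0.937). It was lost in 6 of 16 alternatives, among them DESeq2 (adjusted p = 0.233) and the fit without the block (adjusted p = 0.821).

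The H2B genes split in direction. Hist3h2ba, which lies beside Hist3h2a, had 79.0, 37.7 and 74.9 CPM in proliferating and 125, 51.4 and 107 CPM in other cells of the Six2 class. It was lower in the proliferating cells of every library, by a ratio of 0.632, 0.733 and 0.701, and the groups overlapped through library 2. Its log2 change was -0.56 (SE 0.041, edgeR adjusted p = 1.7e-17), a fall called with the library block and not without it. Hist1h2bc had 73.1, 60.3 and 84.0 CPM in proliferating and 90.4, 61.8 and 72.4 CPM in other cells, and its log2 change of -0.06 (SE 0.069, edgeR adjusted p = 0.478) was not called. Hist2h2be, an H2B gene known in mouse for its expression in olfactory neurons that no longer divide, had 9.64, 17.8 and 10.8 CPM in proliferating and 2.90, 5.12 and 3.75 CPM in other cells. These groups did not overlap, and its log2 change was 1.70 (SE 0.13). Hist1h2bj had 9.16, 0.651 and 3.89 CPM in proliferating and 2.05, 0.233 and 0.853 CPM in other cells, higher in each library but overlapping, with a log2 change of 2.10 (SE 0.24) that was not called without the block (adjusted p = 0.124).

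Of the H3 genes 1 passed the filter, Hist1h3c, with 9.56, 1.76 and 5.80 CPM in proliferating and 3.96, 0.776 and 1.96 CPM in other cells. Its log2 change was 1.34 (SE 0.18, edgeR adjusted p = 9.7e-09), not called without the block (adjusted p = 0.258). Of the H4 genes, Hist1h4i (H4c9 in RefSeq) had 94.1, 80.8 and 101 CPM in proliferating and 32.2, 18.6 and 23.4 CPM in other cells. The groups did not overlap and the proliferating values were close to each other, and its log2 change was 1.88 (SE 0.067, edgeR adjusted p = 1.6e-31). Hist4h4, the single gene of its locus, had 7.90, 16.1 and 5.98 CPM in proliferating and 3.82, 3.57 and 3.07 CPM in other cells, without overlap (log2 change 1.49, SE 0.17).

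**Figure D2:**
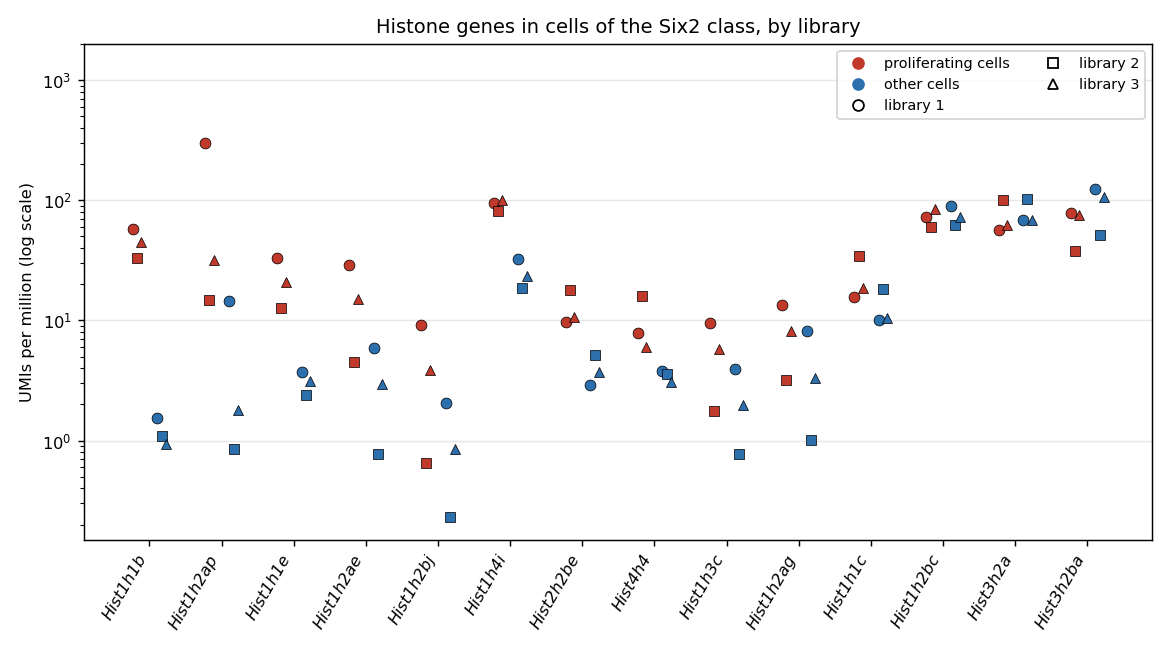
CPM on a log scale (y axis) of the 14 tested histone genes (x axis, ordered by fitted change) in proliferating (red) and other cells (blue) of the Six2 class, with 1 point per library. Hist1h1b lies at 32.9 to 57.4 CPM in proliferating and 0.938 to 1.56 CPM in other cells, and Hist3h2ba, at the right, lies lower in proliferating cells of each library.

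The filter was set by the smallest sums, those of the Lhx1 class. Fitted without that class, 31 histone genes passed it, of which 25 were called higher and 2 lower, against 21.2% and 24.2% of 11993 genes. All 13 genes called above were among these 27. The further calls were all higher in proliferating cells. All 5 tested H1 genes were higher, 5 of 6 H2A genes, 7 of 9 H2B genes, 4 of 5 H3 genes and 4 of 6 H4 genes. These genes too could pass the filter through the cells where they are high. The counts, in all and by type, therefore describe the 31 genes tested and are no support for a rise of each type.

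The largest of the further changes was that of Hist1h1a, a linker histone gene with 7.03, 4.88 and 7.48 CPM in proliferating and 0.636, 0.854 and 0.767 CPM in other cells. Its groups did not overlap, and its log2 change was 3.11 (SE 0.23). Hist2h2ac, an H2A gene, had 4.28, 0.651 and 1.68 CPM in proliferating and 0.354, 0.0776 and 0.426 CPM in other cells (log2 change 2.95, SE 0.39). Hist2h4, an H4 gene, had 3.58, 5.92 and 2.99 CPM in proliferating and 0.848, 1.32 and 0.767 CPM in other cells (log2 change 2.10, SE 0.24). Like Hist4h4 and Hist2h2be, it was highest in library 2, the library in which Hist1h2ap was lowest. Hist1h2be (2.09), Hist1h1d (2.07), Hist1h4d (1.95), Hist1h2bm (1.91), Hist1h2bb (1.85), Hist1h3a (1.80), Hist1h2ak (1.80), Hist1h2bl (1.76), Hist1h2bk (1.53), Hist1h3i (1.16) and Hist1h3e (0.93) were also called, with the log2 change of each in brackets. Hist1h4j (0.47), Hist1h4h (0.12) and Hist2h3c1 (0.05) were not called. Of genes too low for the test, Hist1h2af had 52 UMIs in proliferating cells and 0 in other cells, which is at least 12.2-fold higher (floor of 3 UMIs over the group). Hist2h2ab had 9 UMIs and 0, at least 2.11-fold higher. Both were picked for their 0 in other cells and are no support for a rise of the untested genes.

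Shares of cells followed the same split between genes. A Hist1h1b UMI was found in 34.3% ± 4.97 of proliferating and 1.54% ± 0.527 of other cells of the Six2 class (SD over 3 libraries). A Hist1h4i UMI was found in 63.9% ± 4.70 of proliferating and 24.8% ± 7.22 of other cells. For Hist3h2ba the shares were 58.0% ± 15.5 and 58.9% ± 17.2, which overlapped. Proliferating cells were deeper, with a median of 17330 UMIs against 12926 in other cells. With every cell thinned to 5000 UMIs and the groups set again, Hist1h1b was found in 19.2% of proliferating and 1.36% of other cells, Hist1h4i in 36.4% and 12.1%, and Hist3h2ba in 24.5% and 31.9%. Hist1h2ap ranged most over the libraries, at 59.5%, 17.7% and 32.4% of proliferating and 16.6%, 0.957% and 2.58% of other cells before thinning. Any histone UMI was found in 97.5% ± 1.11 of proliferating and 92.4% ± 4.10 of other cells. No cell type that should lack histone mRNA was among these groups, so the share that free RNA gives was not measured.

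In the Wnt4 class Hist1h1b and Hist1h2ap had the largest changes of the 14 genes tested. Of genes too low for that test, Hist2h4 had 29 UMIs in proliferating and 0 in other cells and Hist2h2ac 19 and 0. They were at least 3.13-fold and 2.05-fold higher (floor of 3 UMIs over the group). In the fit without the Lhx1 class they were tested, with log2 changes of 8.43 and 7.75. With 0 UMIs in other cells such sizes are not reliable, so their place in the order is not known. All histone genes summed to 926, 455 and 577 CPM in proliferating and 388, 306 and 495 CPM in other cells of libraries 1, 2 and 3 of this class. Of the 14 genes tested, 8 were called higher and 2 lower in proliferating cells (edgeR), against 6.51% and 4.17% of 9259 genes. Without library 1, 5 genes were called.

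Hist1h1b had 70.5, 29.3 and 54.8 CPM in proliferating and 0.939, 2.20 and 8.61 CPM in other cells of the Wnt4 class, with no overlap and a log2 change of 4.25 (SE 0.41, edgeR adjusted p = 3.5e-12). Hist1h2ap had 317, 12.3 and 41.3 CPM in proliferating and 18.8, 2.20 and 2.15 CPM in other cells, higher in each library (log2 change 4.05, SE 0.19, edgeR adjusted p = 1.6e-23). A Hist1h1b UMI was found in 1, 1 and 4 other cells of the libraries, and a Hist1h2ap UMI in 16, 1 and 1. The sizes of both changes therefore rest on few other cells. Hist1h4i had 96.1, 74.7 and 120 CPM in proliferating and 43.2, 28.6 and 58.1 CPM in other cells, with a log2 change of 1.18 (SE 0.21). The log2 changes of the other genes called higher were 3.02 for Hist1h1e, 2.33 for Hist1h2bj, 1.68 for Hist1h2ag, 1.68 for Hist1h2ae and 1.56 for Hist1h3c.

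Lower in the proliferating cells of the Wnt4 class were Hist3h2ba and Hist1h2bc. Hist3h2ba had 65.2, 26.5 and 65.0 CPM in proliferating and 93.9, 52.9 and 108 CPM in other cells, lower in each library (log2 change -0.62, SE 0.15, edgeR adjusted p = 0.0018). Hist1h2bc had 61.5, 103 and 62.3 CPM in proliferating and 101, 48.5 and 181 CPM in other cells, so library 2 ran against the rest (log2 change -0.65, SE 0.22, edgeR adjusted p = 0.041). This call was lost in 8 of 16 alternatives, among them those without library 1 (-0.64), without library 3 (-0.25) and without the Lhx1 class (-0.63, adjusted p = 0.0536). The 39 other cells of library 2 in this class carried 174 CPM of immune markers, against 0 and 0.939 CPM in the other two libraries and 1.61 to 4.37 CPM in proliferating cells. The part of such cells in these values was not tested.

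The difference between both proliferation effects, tested as an interaction in the same fit, was called for 0 of the 14 genes by edgeR, against 0% higher and 0.0648% lower of all genes. At an unadjusted p under 0.05 there were 2 (Hist1h4i at -0.69, SE 0.25, and Hist1h2bc at -0.59, SE 0.23), and DESeq2 called 0. For Hist1h1b the difference was -0.95 (SE 0.80) and for Hist1h2ap -0.29 (SE 0.33), so differences of moderate size could not have been seen with 130 other cells in the Wnt4 class.

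The Lhx1 class was small, with 54 proliferating and 25 other cells. Its histone genes summed to 927, 332 and 607 CPM in proliferating and 326, 247 and 449 CPM in other cells. The test called 3 of 14 genes higher and 0 lower, against 2.45% and 1.17% of 9259 genes (edgeR). Hist1h2ap had 332, 19.2 and 36.1 CPM in proliferating cells and no UMI in the other cells of any library. Over the libraries this was 245 UMIs against 0, at least 20.96-fold higher (floor of 3 UMIs over the group, edgeR adjusted p = 7e-07, lost without library 1 at 0.137).

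Hist1h1b had 56.5, 4.81 and 84.2 CPM in proliferating and 14.8, 6.02 and 0 CPM in other cells of the Lhx1 class, which overlapped (log2 change 2.90, SE 0.87, edgeR adjusted p = 0.044). Hist1h4i had 98.5, 19.2 and 111 CPM in proliferating and 29.6, 6.02 and 36.4 CPM in other cells (log2 change 2.15, SE 0.65, edgeR adjusted p = 0.046). Both calls were lost without any one of the libraries. A Hist1h1b UMI was found in 12, 1 and 10 proliferating and in 1, 1 and 0 other cells of the libraries. For Hist1h4i these were 21, 3 and 13 proliferating and 1, 1 and 2 other cells. The levels in other cells therefore rest on very few cells. Library 2 had the lowest proliferating value of both genes, which for Hist1h1b came from 1 cell. The 14 proliferating cells of library 2 carried 515 CPM of the 5 ureteric markers, against 89.8 and 198 CPM in libraries 1 and 3. The part of such cells in these values was not tested.

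**Figure D3:**
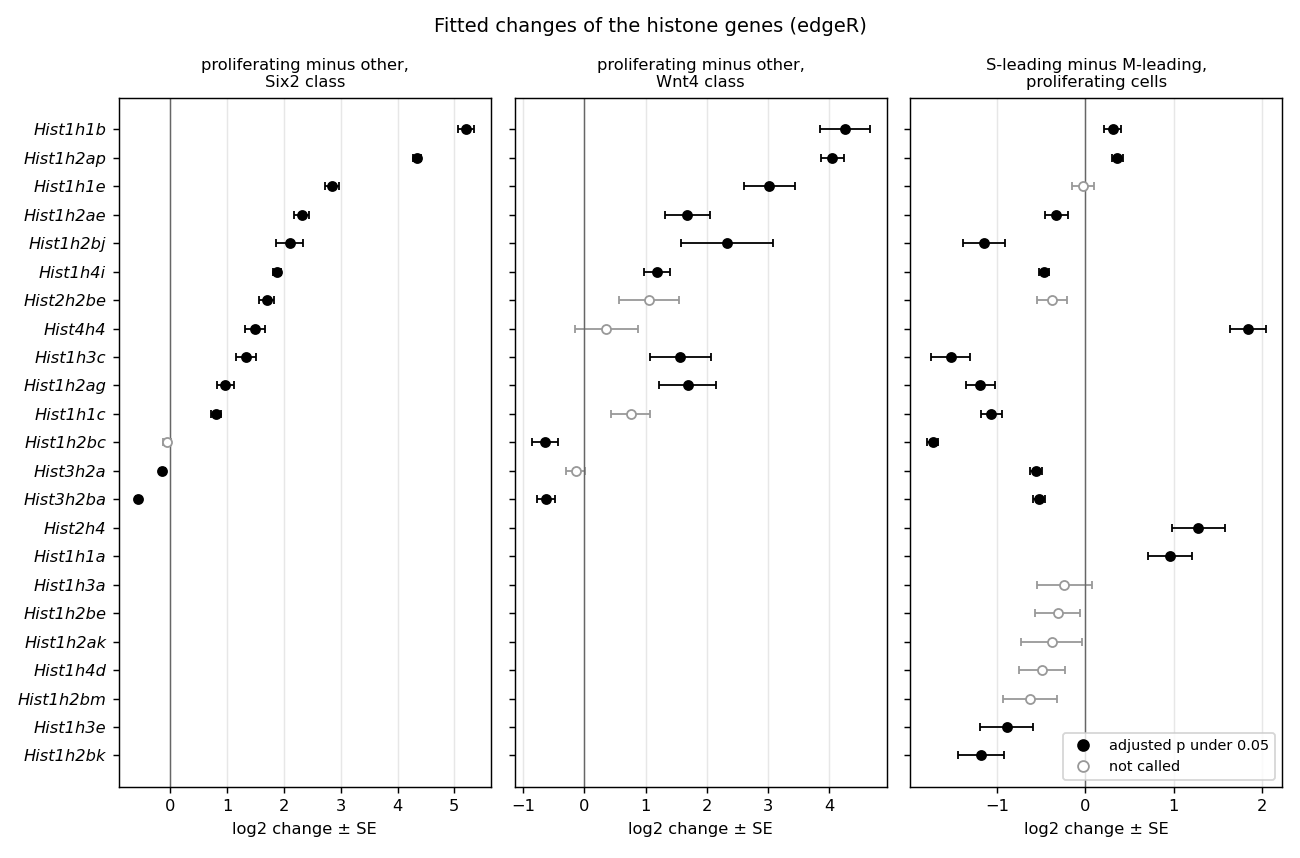
Fitted log2 changes with their standard errors (x axis) of the tested histone genes (y axis) for proliferating minus other cells of the Six2 class (left) and of the Wnt4 class (middle) and for S-leading minus M-leading proliferating cells (right), with filled points for an edgeR adjusted p under 0.05. Hist1h1b is highest in the left panel at 5.21, and Hist3h2ba lies below 0 in all 3 panels.

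The Wnt4 class was also set against the Six2 class at the same state of proliferation. Among proliferating cells, all histone genes together were at 926, 455 and 577 CPM in the Wnt4 class and 879, 452 and 542 CPM in the Six2 class, a ratio of 1.05, 1.01 and 1.06. The test called 1 gene higher and 1 lower of 14 (edgeR), against 4.41% and 4.63% of 9259 genes. With 14 genes tested, these counts do not set the histone genes apart from all genes. Hist1h3c had 17.2, 0.946 and 10.2 CPM in the Wnt4 class and 9.56, 1.76 and 5.80 CPM in the Six2 class, higher in libraries 1 and 3 (log2 change 0.78, SE 0.22, edgeR adjusted p = 0.012). That call was lost without library 3 (0.77, adjusted p = 0.0892). Hist3h2ba had 65.2, 26.5 and 65.0 CPM in the Wnt4 class and 79.0, 37.7 and 74.9 CPM in the Six2 class, lower in each library (log2 change -0.28, SE 0.085, edgeR adjusted p = 0.023). This one was lost without library 1 (-0.28, adjusted p = 0.274) and without library 3 (-0.33, adjusted p = 0.0601), and DESeq2 called 0 genes here.

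Among other cells, 0 of the 14 genes were called between the Wnt4 and the Six2 class by edgeR, against 1.26% higher and 0.929% lower of all genes. At such low shares, 0 of 14 does not set the histone genes apart either. There were 3 genes at an unadjusted p under 0.05, Hist1h4i (0.76, SE 0.24), Hist1h2bc (0.48, SE 0.19) and Hist4h4 (1.19, SE 0.55), and DESeq2 called 0.

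With proliferating and other cells summed, 5 of 20 tested genes were called higher and 1 lower in the Wnt4 class than in the Six2 class (edgeR), against 4.82% and 5.18% of 10193 genes. The higher ones were Hist1h3c (0.90), Hist1h1e (0.57), Hist1h1b (0.57), Hist1h2ap (0.40) and Hist1h4i (0.36), and the lower one was Hist3h2ba (-0.36). By count, 280 of 410 Wnt4 class cells and 3047 of 5994 Six2 class cells were proliferating, and the part of this difference in the 6 calls was not tested. None of the 6 was called without library 1 or by DESeq2, there were 2 calls without library 3, and there were 9 without library 2. Between the Lhx1 and the Six2 class, Hist1h2ap alone of 20 genes was called, with 302, 10.7 and 28.9 CPM in the Lhx1 class and 191, 8.50 and 19.4 CPM in the Six2 class. Its log2 change was 0.66 (SE 0.12, edgeR adjusted p = 9.4e-04), against 3.28% of genes called higher and 1.78% lower, and the call was lost without library 1 (0.49).

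Within proliferating cells the genes were compared between phases. The S-leading cells had a share of UMIs in 20 S phase genes above, and a share in 15 M phase genes at or below, the median of the proliferating cells of their library, and the M-leading cells the reverse. The groups held 411, 317 and 262 cells each in libraries 1, 2 and 3 and had a median of 17778.5 (S-leading) and 17319 UMIs (M-leading). All histone genes summed to 631, 355 and 360 CPM in S-leading and 790, 472 and 593 CPM in M-leading cells. Each library was lower in its S-leading cells, by a ratio of 0.799, 0.752 and 0.607, although the groups overlapped. Thinned to 5000 UMIs with the groups kept, the means were 428 CPM in S-leading and 637 CPM in M-leading cells. Thinned with the groups set again from the thinned counts, they were 637 and 667 CPM, so this difference in the summed level hung on how the phase groups were drawn.

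By type, H2B and H3 had the lowest ratios. H2B genes summed to 128, 79.4 and 122 CPM in S-leading and 261, 176 and 262 CPM in M-leading cells, a ratio of 0.489, 0.452 and 0.467. H3 genes had a ratio of 0.557, 0.497 and 0.552. H1 genes, at 0.980, 0.943 and 0.781, and H4 genes, at 0.807, 1.11 and 0.760, lay closer to 1.

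Of the 23 genes tested, 5 were called higher and 11 lower in S-leading cells (edgeR), against 22% and 19.8% of 11080 genes. The share called higher was near that of all genes, and the share called lower was above it. DESeq2 called 1 higher, Hist4h4, and 7 lower, against 978 and 878 of 11080 genes. So Hist2h4, Hist1h1a, Hist1h2ap and Hist1h1b were not called higher by it, nor Hist1h2bk, Hist1h2bj, Hist1h3e and Hist1h2ae lower. Hist4h4 rose most, with 10.6, 26.1 and 5.72 CPM in S-leading and 2.56, 6.27 and 3.04 CPM in M-leading cells, higher in each library (log2 change 1.84, SE 0.20, edgeR adjusted p = 1.6e-09). Hist2h4, the other H4 gene that rose, had 3.71, 7.80 and 3.55 CPM in S-leading and 2.44, 1.82 and 1.33 CPM in M-leading cells, without overlap (log2 change 1.28, SE 0.30). It was not called without library 2 (0.86, adjusted p = 0.0590). Hist1h1a had 5.44, 5.27 and 5.12 CPM in S-leading and 2.92, 2.23 and 2.85 CPM in M-leading cells, with the least spread of the 5 and no overlap (log2 change 0.96, SE 0.25).

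Both genes with the largest proliferation changes differed less by phase. Hist1h2ap had 223, 11.8 and 20.7 CPM in S-leading and 169, 8.70 and 19.9 CPM in M-leading cells (log2 change 0.36, SE 0.061). Hist1h1b had 42.1, 27.4 and 27.8 CPM in S-leading and 32.8, 19.0 and 26.8 CPM in M-leading cells (log2 change 0.31, SE 0.093). They were higher in S-leading cells of each library with overlapping groups, and neither was called without library 1 (0.18 and 0.26). Hist1h1b was not called without library 2 either (0.25).

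Hist1h2bc, which was not called by proliferation in the Six2 class, fell most of the 23 genes in S-leading cells. It had 37.4, 29.9 and 49.5 CPM in S-leading and 127, 107 and 147 CPM in M-leading cells. The groups lay far apart in every library, and the log2 change was -1.72 (SE 0.062, edgeR adjusted p = 5.9e-23). It was called under every alternative tried, between -1.92 and -1.65. Hist1h3c had 6.19, 0.211 and 3.15 CPM in S-leading and 15.3, 3.24 and 9.69 CPM in M-leading cells (log2 change -1.52, SE 0.22). Hist1h1c had 10.1, 26.8 and 9.26 CPM in S-leading and 23.4, 44.3 and 26.2 CPM in M-leading cells (log2 change -1.06, SE 0.12). Both were lower in S-leading cells of each library.

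Hist1h4i, the leading H4 gene, had 63.8, 60.7 and 70.2 CPM in S-leading and 90.4, 78.3 and 97.7 CPM in M-leading cells. These groups did not overlap, and the log2 change was -0.46 (SE 0.058), opposite in sign to Hist4h4 and Hist2h4. With thinned cells and groups set again it was 0.027 and not called (adjusted p = 0.893). The Hist3 genes were lower in S-leading cells of each library, Hist3h2ba by a log2 change of -0.53 (SE 0.067) and Hist3h2a by -0.56 (SE 0.070). Also lower were Hist1h2ag (-1.19), Hist1h2bk (-1.18), Hist1h2bj (-1.15), Hist1h3e (-0.89) and Hist1h2ae (-0.33). Without library 1, Hist1h3e (-0.02) and Hist1h2ae (-0.18) were not called, and Hist1h2ae was lost in 11 of 14 alternatives. Hist1h1e (-0.03, SE 0.12) was not called in either direction.

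The phase groups also held cells of other types. The 6 immune markers summed to 20.9 to 71.2 CPM in S-leading and 45.7 to 85.5 CPM in M-leading cells, and the 4 endothelial markers to 0 to 1.48 and 0.731 to 20.9 CPM. With only the 784 S-leading and 729 M-leading cells of the Six2 class, all 16 calls were made again. There Hist4h4 had a log2 change of 1.82, Hist2h4 of 1.57, Hist1h2bc of -1.75 and Hist1h3c of -1.93.

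**Figure D4:**
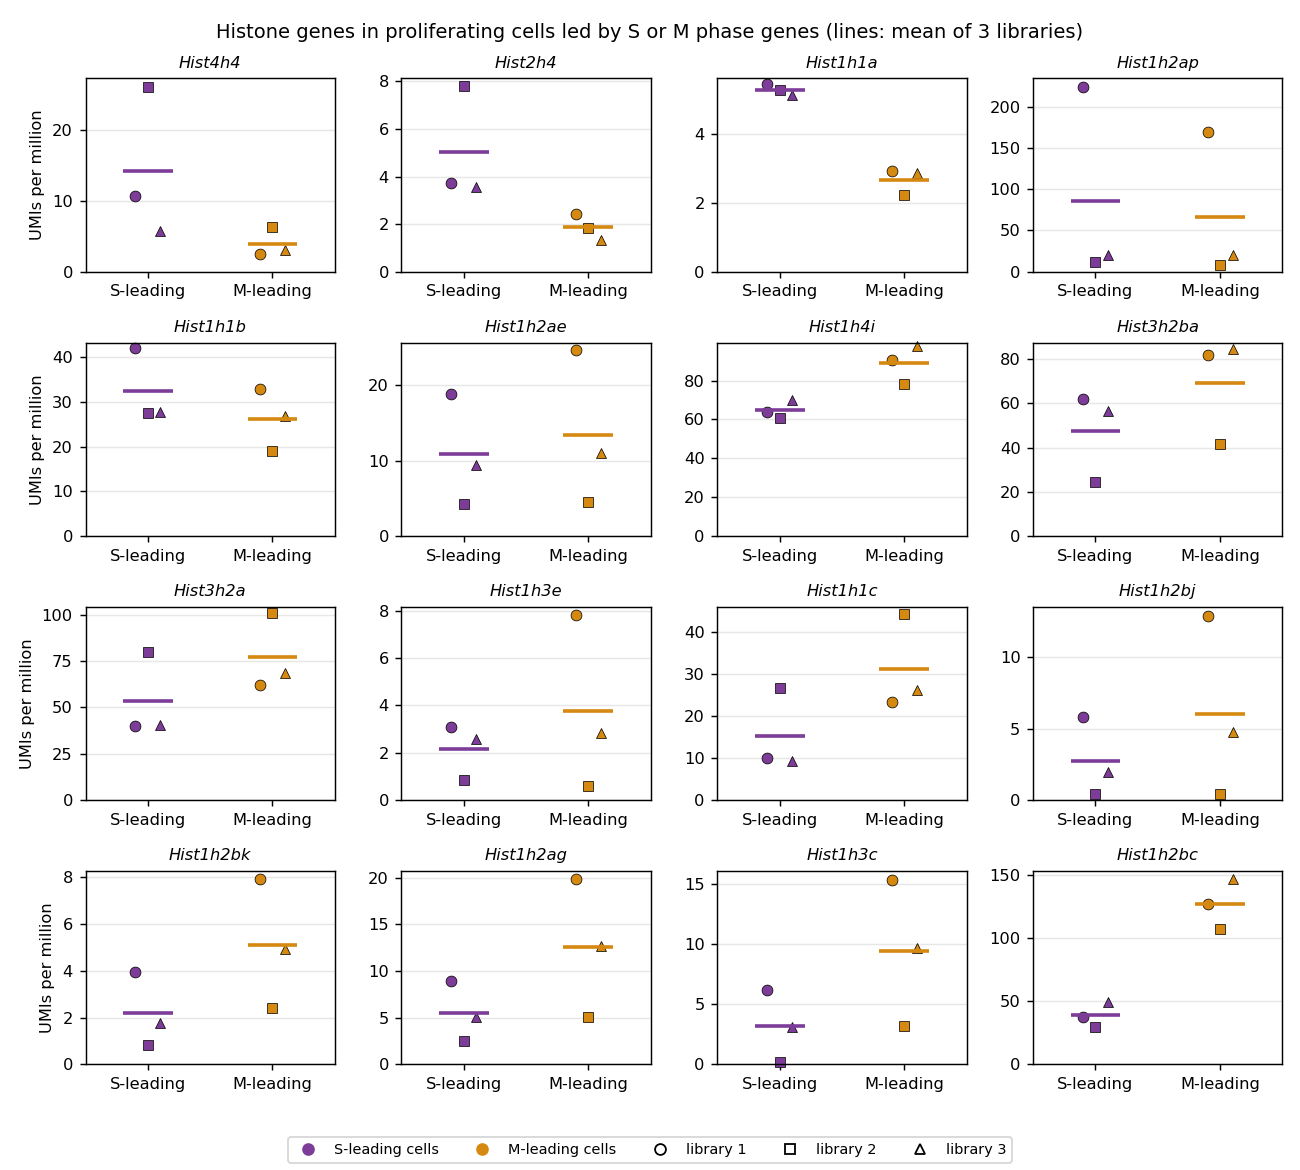
CPM (y axis, from 0) of the 16 histone genes called between the phase groups, in S-leading (purple) and M-leading (orange) proliferating cells, with 1 point per library and a line at the mean of the 3 libraries. Hist4h4, at the top left, lies higher in S-leading cells, and Hist1h2bc, at the bottom right, lies at 29.9 to 49.5 CPM in S-leading and 107 to 147 CPM in M-leading cells.

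The level of single genes also differed between libraries, and not in 1 direction. Over all kept cells Hist1h2ap was at 184, 8.24 and 19.2 CPM in libraries 1, 2 and 3, 22.3 times as high in library 1 as in library 2. Hist1h2bj stood at a ratio of 16.3 and Hist2h2ac at 7.11. Other genes ran against this: Hist1h1c (0.490), Hist4h4 (0.580), Hist2h2be (0.586) and Hist3h2a (0.603) were lower in library 1 than in library 2.

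Sorted by the annotated end of the transcript, 8 genes counted as ending at the stem-loop had ratios of library 1 over library 2 from 3.35 to 22.3, with a median of 6.42. The 14 genes that run on had ratios from 0.490 to 7.01 with a median of 1.15, and the 6 genes with no stem-loop in the transcript had ratios from 0.586 to 6.31 with a median of 1.87. These are the genes with at least 100 UMIs in all and 10 in library 2. Among the 6, Hist1h2ak (5.60) and Hist1h3i (6.31) have annotated transcripts of coding sequence only, so their 3′ ends were not searched. The others, Hist1h2bc, Hist1h1b, Hist1h1a and Hist2h2be, had ratios from 0.586 to 2.10. How far their annotated transcripts reach past the coding sequence was not measured, so a stem-loop may have been missed in them too. The limit of 100 bases was chosen after the values were seen, the genes of a kind share sequence and libraries, and no test was made. Genes that end at the stem-loop held 21.3% of the histone UMIs, genes that run on 54.5% and genes with none found 23.7%. Library 1 was also deeper than library 2 and had a higher share of ribosomal protein UMIs, and the part of either in these ratios was not tested.

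**Figure D5:**
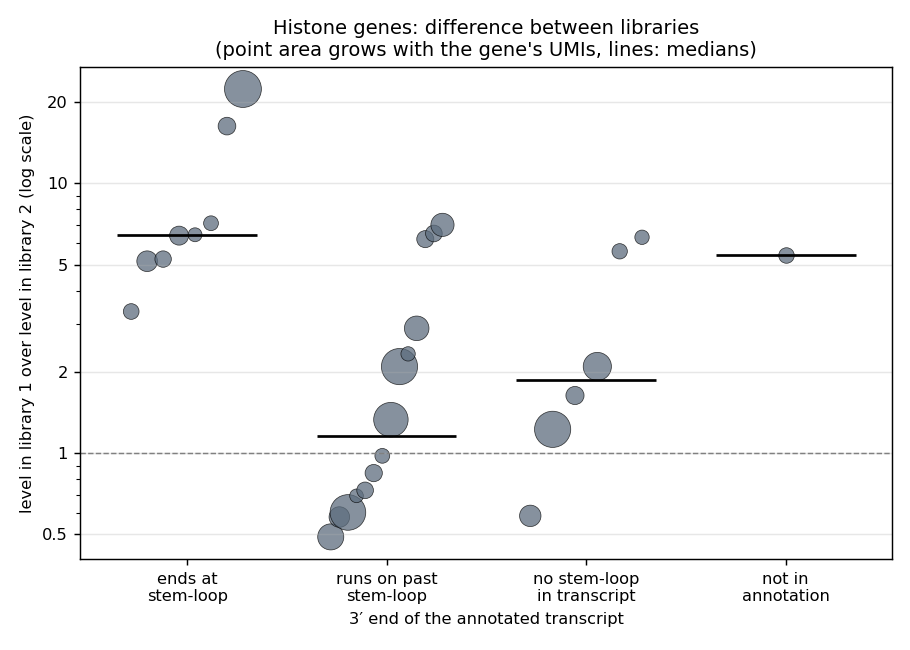
Level in library 1 over level in library 2 (y axis, log scale) of histone genes with at least 100 UMIs, by the 3′ end of the annotated transcript (x axis), with 1 point per gene whose area grows with its UMIs, a line at the median and a dashed line at 1. Genes that end at the stem-loop all lie above 3, with a median of 6.42, and genes that run on have a median of 1.15. The genes with no stem-loop in the transcript include Hist1h2ak and Hist1h3i, whose 3′ ends were not searched.

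Further lists of genes around the histones were read in the same fits. The first holds 14 genes of histone mRNA transcription and 3′ processing, of which 13 passed the filter and 9 were called higher and 1 lower in proliferating cells of the Six2 class (edgeR), against 21.8% and 30.7% of all genes. Slbp, the stem-loop binding protein, had 363 ± 47.0 CPM in proliferating and 262 ± 38.6 CPM in other cells (SD, n = 3 each), a log2 change of 0.47 (SE 0.031). Eri1, an exonuclease that trims histone mRNA, changed by 0.44 and Lsm11, a subunit of the U7 particle, by 0.33. Npat, a coactivator of histone genes, was not called (0.16, SE 0.088), and Cpsf3, the nuclease that cuts the transcript, was lower by little (-0.10, SE 0.044). The median log2 change of the list was 0.28, against -0.05 over all genes.

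Between phases 6 of the 13 were called higher and 2 lower in S-leading cells, against 22% and 19.8% of all genes. Slbp had 468 ± 71.9 CPM in S-leading and 197 ± 33.9 CPM in M-leading cells (log2 change 1.25, SE 0.035). Casp8ap2, whose product takes part in histone mRNA processing, changed by 1.26 (SE 0.056) and Npat by 1.06 (SE 0.12). So Slbp, Casp8ap2 and Npat ran with Hist4h4 and Hist2h4 and opposite to Hist1h2bc in this comparison.

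Replacement and variant histone genes lie outside the rule and are the second list. Of 11, 9 were called higher and 0 lower in proliferating cells of the Six2 class, against 21.8% and 30.7% of all genes. H2afz, the H2A.Z gene, had 4068 ± 393 CPM in proliferating and 2108 ± 150 CPM in other cells (SD, n = 3 each). Its log2 change was 0.95 (SE 0.046), and its captured level was above that of all 69 replication genes together. Most mRNAs of the replication genes lack a poly(A) tail, so this compares captured UMIs and not amounts of mRNA. H2afx, which encodes the H2A that is phosphorylated at DNA breaks, had 532 ± 121 and 135 ± 18.4 CPM (log2 change 1.96, SE 0.045), and Cenpa, the H3 of centromeres, changed by 2.09 (SE 0.065). H3f3a, an H3.3 gene, was not called (-0.04, SE 0.031). In S-leading cells 1 of the 11 was called higher and 8 lower, against 22% and 19.8% of all genes. Cenpa had 33.4 ± 3.21 CPM in S-leading and 576 ± 84.8 CPM in M-leading cells (log2 change -4.10, SE 0.047), and H2afx changed by -1.86 (SE 0.032).

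The third list holds 16 histone chaperones, of which 14 were called higher and 1 lower in proliferating cells of the Six2 class, against 21.8% and 30.7% of all genes. Asf1b, which hands new H3 and H4 to assembly factors, had 52.6 ± 10.7 CPM in proliferating and 10.5 ± 1.81 CPM in other cells (log2 change 2.32, SE 0.069). Chaf1a and Chaf1b, subunits of the assembly factor that works at replication forks, changed by 0.89 and 0.88. In S-leading cells 11 of the 16 were called higher and 1 lower, against 22% and 19.8% of all genes. Chaf1b had 159 ± 24.2 CPM in S-leading and 25.0 ± 2.92 CPM in M-leading cells (log2 change 2.66, SE 0.064), and Hjurp, the chaperone of Cenpa, was the lower one (-0.33, SE 0.046). In the proliferating cells of the Wnt4 class, 1 of 13 processing, 8 of 11 variant and 9 of 16 chaperone genes were called higher and 0 lower, against 6.51% and 4.17% of all genes. The share of the processing genes was near that of all genes.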

How the data were processed

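Single-cell libraries of 3 tubes of sorted cells (10x Chromium, version 2 chemistry, per the labels) were read from the deposited matrix of counts, for which the submitters' processing notes name Cell Ranger 1.3.1 and the build mm10 as what the authors used. A suffix of the barcode (1, 2 or 3) names the library here, and the sample titles that go with the suffixes are not given in the sources used here. Cells needed at least 1000 genes and at most 10% mitochondrial UMIs (7898 of 7924 barcodes). Of these, 20 cells that Scrublet's method called as doublets and 2 cells with over 1% haemoglobin UMIs were left out, leaving 7876 (50641865, 35193842 and 35447738 UMIs in libraries 1, 2 and 3). In all, 1393 cells had no UMI of Six2, Wnt4 or Lhx1 and fell in no class, and 36 cells with Six2, Lhx1 and no Wnt4 were counted in the Lhx1 class. UMIs were summed per library and group and tested with edgeR 4.0.16 in R 4.3.3 (quasi-likelihood, TMM, filterByExpr, Benjamini-Hochberg over all genes tested, threshold 0.05, two-sided), with the library as a block because both groups of each comparison come from the same tubes. All 18 sums of class and proliferation shared 1 fit, as did 9 sums by class and 6 by phase. DESeq2 1.42.0 was an alternative. The scripts were tested on simulated data. Genes that define the groups are no results. Histone genes named with values had at least 100 UMIs or passed a test, apart from genes with 0 UMIs in a group. Not every gene with at least 100 UMIs was named. The histone genes, lists and groupings were chosen with earlier results of these data known. Stem-loops were searched with the consensus in all annotated transcripts, and sequences of promoters come from RefSeq. Intervals and floors cover counting error only.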

Additional observations from a re-analysis of the deposited data

How the results depend on the processing

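Of 718 recomputed changes of the 51 calls on single genes, 575 stayed on the same side of the threshold, 141 lost the call and 2 turned. Those 2 are S-leading minus M-leading with thinned cells and new groups, Hist1h4i (0.027) and Hist1h2ae (0.43). The cause was not tested. Dropping the library block lost most calls, 41 of 51, while DESeq2 lost 22, leaving out library 1 lost 18 of 43, library 2 lost 5 and library 3 lost 11. Counts of histone genes called moved as follows. Counts over all genes moved too, so a rise or fall alone is no result about the histone genes. For proliferation in the Six2 class (13 called) there were 38 of 65 tested with no filter, against 1967 genes higher and 3366 lower of 18740. There were 27 without the Lhx1 class, against 21.2% higher and 24.2% lower of 11993 genes. Without the block there were 7 of 14, against 472 higher and 158 lower of 9259 genes. With thinning under either grouping there were 5, where 6 genes were tested. For the Wnt4 class (10) there were 1 without the block, 5 to 11 leaving out a library, 3 thinned and 4 thinned with groups kept. For the Lhx1 class (3) there were 0 without the block, 0 to 1 leaving out a library, 0 thinned, and 1 each with groups kept, RLE scaling, total UMIs, DESeq2, without A/T-rich barcodes and with overlap cells in the Six2 class.

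For Wnt4 minus Six2 in proliferating cells (2) there were 0 with DESeq2, without the block, with thinned kept groups and at 2 UMIs of Top2a and Mki67, 1 thinned, 1 without A/T-rich barcodes, and 0 to 4 leaving out a library. In other cells (0) there were 3 with no filter, 2 without the Lhx1 class, 2 with overlap cells moved, 1 without A/T-rich barcodes and 0 to 2 leaving out a library. The interaction (0) gave 2 with no filter and 0 to 1 leaving out a library. Wnt4 minus Six2 in all cells (6) gave 0 with DESeq2, without the block and thinned, 1 with groups kept and 0 to 9 leaving out a library. Lhx1 minus Six2 (1) gave 3 with no filter, 0 without the block, 0 thinned under either grouping, 7 with overlap cells moved and 0 to 4 leaving out a library. S-leading minus M-leading (16) gave 8 with DESeq2 (1 higher and 7 lower), 2 without the block, 7 thinned and 8 with groups kept. The summed level of S-leading cells was 637 CPM thinned. Thinned shares of cells with any histone UMI were 87.9% of proliferating and 72.6% of other Six2 class cells, 83.7% of proliferating and 87.1% of other Wnt4 class cells, an order opposite to that before thinning (99.0% and 91.7%), and 89.7% of proliferating and 62.6% of other Lhx1 class cells. Overlap cells moved, groups kept on thinning and phase groups in the Six2 class alone were chosen after seeing the data.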
